A study of Gallus gallus with 10 samples.

Results

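SPI1 (ENSGALG00000008127), P2RY13 (ENSGALG00000039432) and TREM2 (ENSGALG00000023781) are 3 genes that microglia, the resident macrophages of the brain, are known to express. They are 3 of the 11324 genes in the counts, and all 3 are among the 8585 genes that passed the filter on low counts. They were chosen for the direction of their difference between naïve and mimic-injected chicks in these same libraries, SPI1 and P2RY13 as higher and TREM2 as lower. The levels by group are therefore given as a description, without a test.

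The study asked how gene expression in the chick preoptic anterior hypothalamus (PO/AH), a center of body temperature control, changes when miR-200a is raised. Cobb strain broiler chicks, all 3 days old, were either left uninjected (naïve, 5 libraries) or injected intracranially with a synthetic Hsa-miR-200a-3p mimic and sampled 6 h later (mimic, 5 libraries). Whole PO/AH tissue was used, with 15 ng of RNA per library, and bulk MARS-seq counted molecules at the 3′ ends of transcripts by unique molecular identifiers (UMIs). Naïve chicks received no injection, so the mimic and the injection itself cannot be told apart, and no library of chicks given a control mimic was analysed here. Nothing in the labels or methods tells how many chicks contributed to 1 library, so the spread between libraries may be partly technical.

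SPI1 encodes PU.1, an ETS-family transcription factor that in mammals is required for macrophages and microglia to form and that keeps many of their genes active. P2RY13 encodes a Gi-coupled receptor for ADP, a nucleotide released by damaged or active cells, and in mice it is among the genes that mark resting microglia. TREM2 encodes a surface receptor for lipids and lipoproteins that signals through the adaptor TYROBP (DAP12), and in mammals it takes part in phagocytosis and in the shift of microglia to a lipid-handling state. C1q, the recognition unit of the classical complement pathway, is made in the brain mainly by microglia, and its chains come from C1QA, C1QB and C1QC. In the RefSeq annotation of the GRCg7b assembly, used here for names and gene order only, TREM2 carries the synonym TREM-A1 and lies between the related genes TREMB1 and TREMB2. SPI1 lies between SLC39A13 and MYBPC3. The counts carry identifiers of the galGal5 build without names, and the names of the 3 genes come from the study's supplementary gene lists. Whether reads of TREMB1 or TREMB2 were counted to TREM2 was not tested.

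Library totals ran from 2104121 to 5503185 UMI counts in naïve chicks and from 3598695 to 4511597 after the mimic. Naïve library 7 had the smallest total and stood apart on the first principal component, scoring 24.7 against -4.51 to 2.16 for the rest of the naïve group and -12.6 to 9.37 for the mimic group. FOLR1, a gene strongly expressed in choroid plexus, had 1 to 53 counts in naïve libraries and 0 to 1 in mimic libraries. Library numbers are those in the deposited column names. Levels are CPM, a gene's UMIs per 1000000 UMIs of the library, with library sizes scaled by TMM factors. Of 7 hypothalamic markers none was matched to an identifier by name, so the tissue label was not checked against them. Of 10 microglial markers, C1QA, C1QB and C1QC were matched, and each was counted in every library.

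SPI1 had a higher level in every mimic library than in any naïve library. In naïve chicks its level was 6.69 CPM in library 2, 7.54 CPM in library 3, 8.80 CPM in library 4, 8.09 CPM in library 6 and 9.13 CPM in library 7. After the mimic it was 16.8 CPM in library 2, 11.7 CPM in library 4, 15.6 CPM in library 6, 12.01 CPM in library 9 and 15.8 CPM in library 10. The groups did not overlap, and 2.62 CPM separated the lowest mimic library from the highest naïve library. The raw counts did not overlap either, at 18 to 43 UMIs per naïve library and 45 to 69 per mimic library. The means were 8.05 ± 0.98 CPM (SD, n = 5) and 14.4 ± 2.35 CPM (SD, n = 5), and the fitted log2 fold change was 0.85 (standard error 0.19), or 1.81-fold. Among naïve chicks the spread of SPI1 was no larger than counting allows. The coefficient of variation (SD over mean) was 12.2% there, where Poisson counting alone would give 18.5%. After the mimic it was 16.3%, against 13.2% from counting.

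P2RY13 showed the larger difference of the 2 higher genes. Its level in naïve chicks was 7.59 CPM in library 2, 8.42 CPM in library 3, 11.5 CPM in library 4, 11.4 CPM in library 6 and 14.2 CPM in library 7. After the mimic it was 22.4 CPM in library 2, 21.9 CPM in library 4, 27.2 CPM in library 6, 15.2 CPM in library 9 and 20.7 CPM in library 10. The groups did not overlap, but naïve library 7 and mimic library 9 came within 1.05 CPM of each other. The exact 95% Poisson interval, which covers counting error only, was 9.43 to 20.5 CPM for naïve library 7 and 11.8 to 19.4 CPM for mimic library 9. The means were 10.6 ± 2.65 CPM (SD, n = 5) and 21.5 ± 4.28 CPM (SD, n = 5), with a fitted log2 fold change of 1.05 (standard error 0.21), or 2.07-fold. The spread of P2RY13 was larger than that from counting in both groups. Its coefficient of variation was 24.98% for naïve and 19.9% for mimic libraries, against 16.5% and 10.8% from counting.

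TREM2 had the opposite direction. In naïve chicks its level was 13.7 CPM in library 2, 13.9 CPM in library 3, 23.2 CPM in library 4, 21.8 CPM in library 6 and 15.2 CPM in library 7. After the mimic it was 8.13 CPM in library 2, 9.39 CPM in library 4, 6.80 CPM in library 6, 13.2 CPM in library 9 and 11.1 CPM in library 10. No mimic library reached the lowest naïve library, and the closest pair was 0.569 CPM apart. That gap is well within counting error, since the exact 95% Poisson interval was 10.8 to 17.2 CPM for naïve library 2 and 9.97 to 17.1 CPM for mimic library 9. In raw counts the groups overlapped, with 30 to 113 UMIs per naïve library and 29 to 57 per mimic library, and they also overlapped in CPM when every library was thinned to the smallest total. The means were 17.6 ± 4.57 CPM (SD, n = 5) and 9.72 ± 2.50 CPM (SD, n = 5). The fitted log2 fold change was -0.85 (standard error 0.23), which is 1.80-fold lower after the mimic. The naïve libraries formed a higher pair, libraries 4 and 6, and 3 lower ones. The coefficient of variation was 26.0% for naïve and 25.8% for mimic libraries, and counting alone would give 12.2% and 16.1%. In bulk tissue, more or fewer microglia and more or less RNA per microglial cell cannot be told apart.

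**Figure D1:**
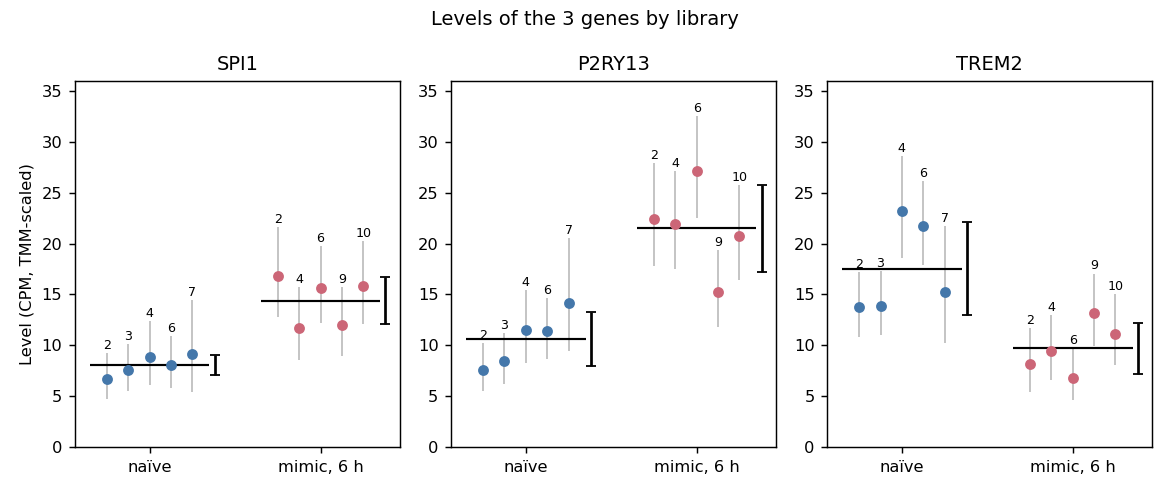
Levels of SPI1, P2RY13 and TREM2 (y axis, CPM with TMM scaling) in each of 5 naïve and 5 mimic libraries, marked with their library numbers; gray bars are exact 95% Poisson intervals, black lines the group means and black bars the SD. SPI1 and P2RY13 sit higher and TREM2 lower after the mimic, with the smallest gap between groups, 0.569 CPM, in TREM2.

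EdgeR called 0 of the 3 genes, against 0.14% of the 8585 tested genes called higher, 0.0233% called lower and 0.163% called in either direction. To be called, a gene had to reach an adjusted p of at most 0.05, differ at least 1.5-fold and have at least 30 UMIs in its highest library. An unadjusted p under 0.05 was found for all 3 genes and for 7.45% of the tested genes. The groups did not overlap in 2 of 2 higher genes and in TREM2, against 1.09% of tested genes without overlap and higher, 0.513% without overlap and lower and 1.61% in either direction. These values are among those that chose the genes, so nothing is read from them. The call of the higher genes depended on the tool. DESeq2 at the study's settings called 2 of the 3, SPI1 and P2RY13, with 36 higher and 5 lower among all 8585 tested genes. Limma-voom called 0 of the 3, with 11 higher and 2 lower among the 8585. With edgeR, P2RY13 was also called without naïve library 7, without mimic library 9, and with log2 library total as a covariate, a setting chosen after seeing the data. In the same order, these settings called 15 of 8693, 15 of 8636 and 22 of 8585 tested genes higher. TREM2 was called under no alternative tried. All these calls use the contrast that chose the genes, so no difference between TREM2 and the other 2 genes is read from them. The study named TREM2 among its lower genes, from a list with a looser threshold on adjusted p than the 0.05 used here.

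The fold changes themselves moved little. Over 20 alternatives the log2 fold change lay between 0.73 and 0.92 for SPI1, between 0.94 and 1.16 for P2RY13 and between -0.99 and -0.73 for TREM2. No alternative moved a gene by more than its SD between libraries. Without naïve library 7, which stood apart, the log2 fold changes were 0.89 for SPI1, 1.16 for P2RY13 and -0.89 for TREM2.

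**Figure D2:**
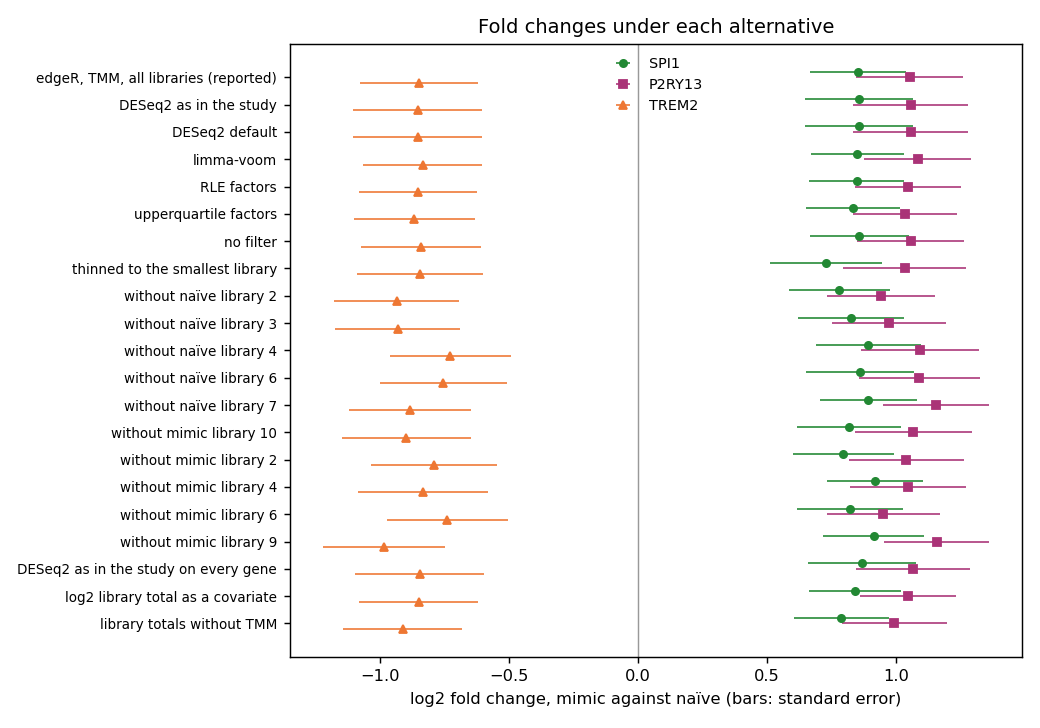
Log2 fold change of mimic against naïve (x axis, bars are standard errors) for the 3 genes under the reported fit and each alternative (y axis). SPI1 stays between 0.73 and 0.92, P2RY13 between 0.94 and 1.16 and TREM2 between -0.99 and -0.73.

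The ratio of 2 genes within a library does not depend on how libraries are scaled, and it set the 2 higher genes against TREM2 directly. The log2 ratio of SPI1 to TREM2 counts was -1.03, -0.87, -1.39, -1.42 and -0.72 in naïve libraries 2, 3, 4, 6 and 7. It was 1.04, 0.32, 1.19, -0.13 and 0.50 in mimic libraries 2, 4, 6, 9 and 10. TREM2 thus had more counts than SPI1 in every naïve library and fewer in 4 of 5 mimic libraries, with mimic library 9 the exception. The mean ratio was -1.08 ± 0.31 (SD, n = 5) and 0.58 ± 0.54 (SD, n = 5), a difference of 1.67.

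The log2 ratio of P2RY13 to TREM2 was -0.85, -0.71, -1.01, -0.93 and -0.10 in the same naïve libraries, where library 7 was close to an even ratio. It was 1.45, 1.21, 1.98, 0.21 and 0.89 in the mimic libraries. Every mimic library was above 0 and every naïve library below it. The mean went from -0.72 ± 0.36 (SD, n = 5) to 1.15 ± 0.66 (SD, n = 5), a difference of 1.87. Both differences are between genes picked for opposite directions, so a difference of this sign is built into the choice. The log2 ratio of P2RY13 to SPI1, the 2 higher genes, was 0.18, 0.16, 0.38, 0.49 and 0.62 in naïve libraries 2, 3, 4, 6 and 7 and 0.41, 0.89, 0.79, 0.34 and 0.39 in mimic libraries 2, 4, 6, 9 and 10. Its mean differed by 0.20, from 0.36 ± 0.20 (SD, n = 5) to 0.57 ± 0.26 (SD, n = 5). In this ratio the groups overlapped, with 2 of 5 mimic libraries above the highest naïve library. Whether the fold changes of the 2 genes differ was not tested.

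**Figure D3:**
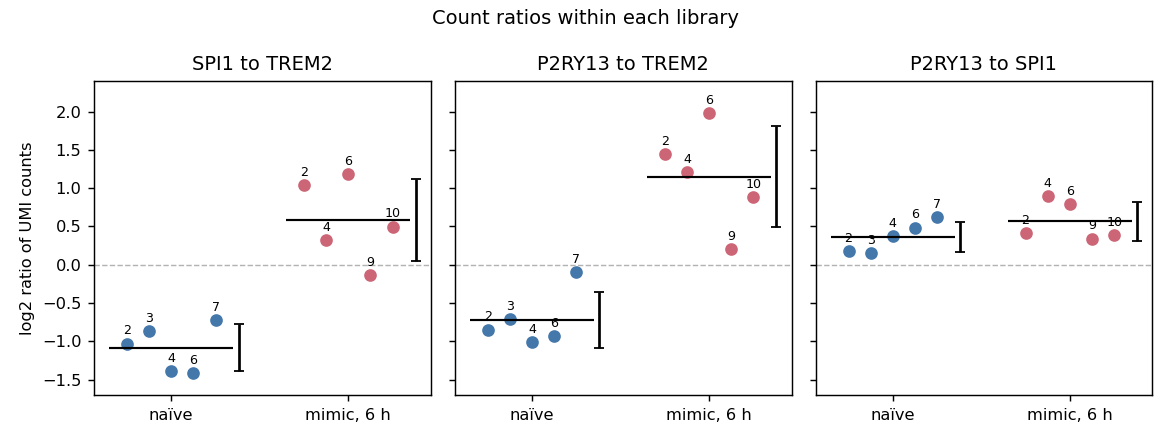
Log2 ratio of UMI counts between pairs of the 3 genes (y axis) in each naïve and mimic library, marked with library numbers; black lines are group means and black bars the SD. All mimic libraries lie above all naïve libraries for the ratios to TREM2, and the groups overlap for P2RY13 to SPI1.

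How the genes varied together between libraries of the same group was not used to choose them, and it could be tested. The test asks only whether the genes of a pair vary independently. How many other genes reach a like r within groups was not counted, so the relations are not shown to be particular to microglial genes. Each library's log2 CPM was taken as its deviation from the group mean, over 10 libraries, and compared by an exact two-sided permutation test that moved libraries within their group. Libraries with more SPI1 had more P2RY13 (Pearson r = 0.72, exact permutation p = 0.0219, adjusted p = 0.0439 over 6 relations). By rank the relation was weaker (Spearman rho = 0.59, exact permutation p = 0.0876, adjusted p = 0.175). Without naïve library 2 and mimic library 4, the 2 farthest from the median of SPI1, r was 0.84 (exact permutation p = 0.026). Its call was lost on leaving out any 1 naïve library or mimic library 2, 6 or 9 (adjusted p from 0.0535 to 0.149, exact permutation tests), and r was 0.63 without naïve library 2 and 0.63 without mimic library 9. In naïve chicks the libraries ranked in the same order for both genes, from library 2 as the lowest to library 7 as the highest. Of the 8584 other genes tested, 153 (1.78%) had this naïve order of SPI1 and 154 (1.79%) its exact reverse. After the mimic, 6 of 10 pairs of libraries were in the same order for SPI1 and P2RY13.

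Both genes also varied with the C1Q genes. C1QB and C1QC rose after the mimic (log2 fold changes of 1.24 and 1.04, adjusted p = 0.00346 and 0.0460 from edgeR), and C1QA had 1.08 (adjusted p = 0.0633 from edgeR). The summed level of the 3 C1Q genes was 50.7 to 77.6 CPM in naïve libraries and 116.4 to 172.2 CPM in mimic libraries. Within groups, P2RY13 followed the mean log2 level of the C1Q genes with r = 0.85 (exact permutation p = 0.0041, adjusted p = 0.0246) and rho = 0.84 (exact permutation p = 0.00535, adjusted p = 0.0321). SPI1 did so with r = 0.83 (exact permutation p = 0.0107, adjusted p = 0.0321) and rho = 0.73 (exact permutation p = 0.0258, adjusted p = 0.0773). Without the 2 libraries farthest from the median, r was 0.86 for P2RY13, leaving out naïve library 2 and mimic library 9, and 0.76 for SPI1. Both relations lost their call on leaving out naïve library 2, 4, 6 or 7, and that of P2RY13 also without mimic library 6. The adjusted p was then 0.0521 to 0.0948 (exact permutation tests).

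For TREM2 no such relation was detected over both groups together. Its deviations had r = -0.09 and rho = -0.01 with SPI1 (exact permutation p = 0.823 and 1.0), r = -0.16 and rho = -0.13 with P2RY13 (exact permutation p = 0.671 and 0.747) and r = -0.09 and rho = -0.05 with the C1Q genes (exact permutation p = 0.806 and 0.895). The adjusted p was 0.823 for each r and 1.0 for each rho. Without naïve library 2 and mimic library 4, the farthest from the median of SPI1, r was -0.38 with SPI1. Without naïve library 2 and mimic library 9, the farthest from the median of P2RY13, r was -0.11 with P2RY13. Without naïve library 4 and mimic library 9, the farthest from the median of TREM2, r was -0.12 with the C1Q genes. An r over both groups together can miss relations that run opposite ways in the groups. For P2RY13 and TREM2, 8 of 10 pairs of naïve libraries were in the same order, against 0 of 10 after the mimic. This was noticed after the values were seen. Of the 8584 other genes tested, 40 (0.466%) had the reverse order of P2RY13 among the mimic libraries. For SPI1 and TREM2 the same order held in 8 of 10 naïve pairs and 4 of 10 mimic pairs. Each group was not tested by itself. Whether the relations of TREM2 differ from those of the other 2 genes was not tested.

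**Figure D4:**
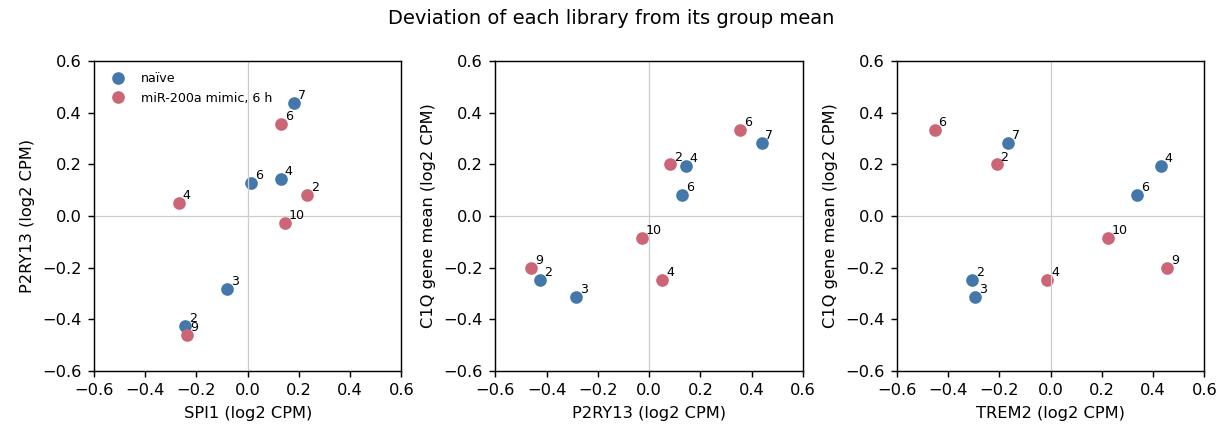
Deviation of each library from its group mean (log2 CPM on both axes) for P2RY13 against SPI1 and for the mean of C1QA, C1QB and C1QC against P2RY13 and against TREM2; blue points are naïve and red points mimic libraries, marked with their numbers. Points rise together in the first 2 panels (r = 0.72 and 0.85) and show no trend over both groups together for TREM2 (r = -0.09).

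Library totals were compared with the same deviations, and no relation passed the threshold. In naïve chicks SPI1 and P2RY13 were lowest in the largest library, library 2, and highest in the smallest, library 7, and their order was the exact reverse of the totals. Within groups, r with log2 library total was -0.49 for SPI1, -0.64 for P2RY13, -0.55 for the C1Q genes and -0.02 for TREM2. The exact permutation p was 0.0892, 0.0642, 0.112 and 0.971, and the adjusted p was 0.149, 0.149, 0.149 and 0.971 over 4 relations. By rank, rho was -0.64, -0.54, -0.59 and -0.31 (exact permutation p = 0.0338, 0.139, 0.115 and 0.387; adjusted p = 0.135, 0.186, 0.186 and 0.387). Without naïve libraries 2 and 7, the farthest in total, r lay between -0.33 and -0.29 for all of these.

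With log2 library total as a covariate, chosen after seeing the data, the relations kept their direction and missed the threshold. They were r = 0.61 for SPI1 and P2RY13, 0.77 for SPI1 and C1Q and 0.77 for P2RY13 and C1Q. By an approximate permutation test, which moved the deviations left after fitting library total, the adjusted p was 0.238, 0.106 and 0.106. The same covariate left the difference between groups where it was, at 0.84 for SPI1, 1.05 for P2RY13 and -0.85 for TREM2 on the log2 scale. The relations of SPI1 and P2RY13 also missed the threshold when some single libraries were left out. Without naïve library 7, for one, r was 0.68 for SPI1 and P2RY13, 0.80 for SPI1 and C1Q and 0.81 for P2RY13 and C1Q (adjusted p = 0.128, 0.0948 and 0.0948, exact permutation tests).

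**Figure D5:**
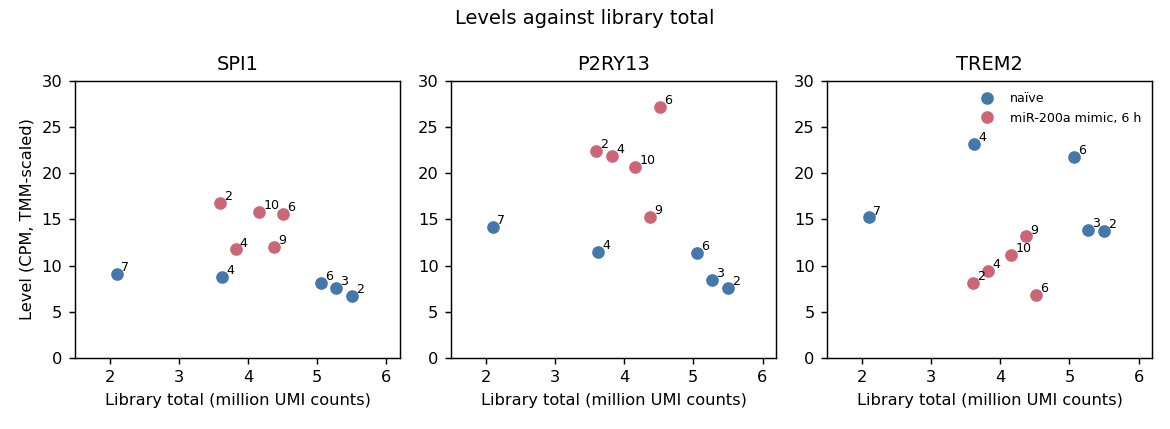
Level of each of the 3 genes (y axis, CPM with TMM scaling) against library total (x axis, UMI counts) in naïve (blue) and mimic (red) libraries, marked with their numbers. Naïve levels of SPI1 and P2RY13 go down as the total goes up. Only naïve library 4 has a total within the range of the mimic libraries. It lies below all of them for SPI1 and P2RY13 and above all of them for TREM2.

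Few other genes of the pathways of SPI1, P2RY13 and TREM2 could be read by name, and the names of nearly all of these come from the study's lists of higher and lower genes, so their directions are not independent evidence. Of 29 microglial identity genes, 6 were matched and tested. EdgeR called 2 of them higher and 0 lower, where 0.14% of all tested genes were called higher and 0.0233% lower. Those called were C1QB and C1QC. The median log2 fold change of the 6 was 1.06, against 0.00 for all genes tested. All 6 were named through the study's list of higher genes, so this direction was fixed by that choice and nothing is read from it. TLR2A, a Toll-like receptor that binds bacterial lipoproteins, had a mean of 12.2 ± 2.64 CPM in naïve libraries and 20.3 ± 0.763 CPM in mimic libraries (SD, n = 5 each; edgeR adjusted p = 0.151). Its groups did not overlap in CPM, as in the 1.09% of tested genes that were higher without overlap. The raw counts of TLR2A overlapped, at 27 to 83 UMIs per naïve library and 75 to 90 per mimic library. TLR1B, which pairs with TLR2 receptors, differed by 1.91 on the log2 scale (edgeR adjusted p = 0.0633), and its groups overlapped. Of 18 genes for PU.1 partners and myeloid growth factors only CSF1 was matched. CSF1 encodes a ligand of the receptor on which microglia depend for survival. Its mean level went from 5.75 ± 1.44 to 10.9 ± 3.05 CPM without overlap in CPM (SD of 5 libraries, edgeR adjusted p = 0.325). The raw counts of CSF1 overlapped, at 7 to 37 UMIs per naïve library and 30 to 57 per mimic library. CSF1 too was named through the study's list of higher genes.

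Of 27 genes for TREM2 signaling and lipid handling only PLTP was matched, through the study's list of lower genes, and it fell. PLTP moves phospholipids between lipoproteins, and its log2 fold change was -1.32 (adjusted p = 0.00707 from edgeR). Of 25 genes for purinergic signaling 0 were matched, so the related receptor P2RY12 was not analysed here. RBFOX3, a neuronal gene and the one matched of 8 neuronal markers, had overlapping groups with means of 116 ± 19.8 CPM in naïve and 84.5 ± 23.3 CPM in mimic libraries (SD of 5 libraries; edgeR adjusted p = 0.612). No astrocyte, oligodendrocyte, endothelial, erythrocyte, lymphocyte, granulocyte or monocyte marker was matched, and the part of such cells in the 3 genes' levels was not tested.

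The named genes whose log2 CPM was most like each of the 3 over the 10 libraries were taken from the 120 other tested genes with a symbol. Since most of these genes were selected by the study on the same contrast, and all libraries share the group difference, likeness is given also after group means were removed. Most like SPI1 were SOCS3 (r = 0.97, and 0.92 after group means were removed), C1S (0.96 and 0.75), C1QC (0.95 and 0.77), C1QB (0.95 and 0.65) and TGM4 (0.95 and 0.75). SOCS3 encodes a feedback inhibitor of cytokine signaling. Most like P2RY13 were C1QB (0.96 and 0.89), ITGB1BP3 (0.94 and 0.77), SPI1 (0.94 and 0.72), C1QA (0.93 and 0.75) and C1S (0.93 and 0.68).

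Most like TREM2 among the genes with a symbol were FXYD2 (0.85 and 0.52), CSPG5 (0.84 and 0.56), PLTP (0.72 and -0.06), RAMP2 (0.71 and 0.20) and SCG3 (0.71 and 0.80). Among all 8584 other tested genes, FXYD2 and CSPG5 ranked 4 and 5 in likeness to TREM2. PLTP, RAMP2 and SCG3 ranked 50, 53 and 56, and the genes listed for SPI1 and P2RY13 ranked 1 to 6. These ranks include the group difference, and only genes with a symbol could be listed. No difference between TREM2 and the other genes is therefore read from them. FXYD2 is a regulatory subunit of the sodium pump, CSPG5 a neural proteoglycan and SCG3 a protein of neuroendocrine secretory granules.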

How the data were processed

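PO/AH RNA of 5 naïve and 5 mimic libraries was analysed. The values are UMI counts as the authors deposited them, made by cutadapt trimming, STAR mapping against galGal5 gene 3′ ends, HTSeq counting, removal of UMI duplicates and a saturation correction. A further 10 per-sample columns stayed out. Groups come from the condition in each column's name.

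The tests were run with edgeR 4.0.16 in R 4.3.3 (filterByExpr with a minimum count of 10, TMM, robust quasi-likelihood test, two-sided, Benjamini-Hochberg adjustment), limma 3.58.1 and DESeq2 1.42.0. The standard error is the log2 fold change over the root of F. Log2 CPM used a prior count of 2, and count ratios a pseudocount of 0.5. The tests were run on simulated data as a check of the code only. How often they detect effects of the size seen here is not given. No library duplicated another of its own group (lowest chi-square per gene of a pair within a group, 8.53), and pairs across groups were not compared. Symbols of 137 genes come from the study's supplementary tables, 94 of them from its lists of higher and lower genes. The genes to name were the 3 genes, called genes or the 4 with the smallest p of each list, the C1Q genes and CSF1, and the 5 named genes most like each of the 3. The 3 genes and all lists were chosen with earlier results of these data known. Gene sequences were not used here. The gene order around P2RY13 is not reported here.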

Additional observations from a re-analysis of the deposited data

How the results depend on the processing

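No paired analysis was possible because column names and sample titles number the libraries differently. The log2 fold changes of SPI1, P2RY13 and TREM2 kept their direction and moved by less than the SD between libraries under all 20 alternatives, and the count ratios under all 12. Leaving out 1 library gave 0.78 to 0.92 for SPI1, 0.94 to 1.16 for P2RY13 and -0.99 to -0.73 for TREM2. It gave 1.52 to 1.84 for SPI1 to TREM2, 1.66 to 2.10 for P2RY13 to TREM2 and 0.12 to 0.27 for P2RY13 to SPI1. With 18 to 120 counts per library, counting error limits how well these levels are known, and the spread of P2RY13 and TREM2 was larger than counting gives.

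Over all genes edgeR called 12 higher and 2 lower. DESeq2 at the study's and at default settings called 36 higher and 5 lower, and on every gene with a count 39 and 5. Thinning called 1 lower, and the covariate of library total 22 higher. Leaving out 1 library called 6 to 18 higher.

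Leaving out 1 library gave a within-group r of 0.63 to 0.88 for SPI1 and P2RY13, 0.80 to 0.91 for SPI1 and C1Q and 0.81 to 0.94 for P2RY13 and C1Q. The first lost its call on leaving out any naïve library or mimic library 2, 6 or 9 (adjusted p of 0.0535 to 0.149), and those with C1Q on leaving out naïve library 2, 4, 6 or 7, for P2RY13 also mimic library 6 (adjusted p of 0.0521 to 0.0948). With the covariate they were 0.61, 0.77 and 0.77, and with CPM by library total that of SPI1 and P2RY13 was 0.67, and none of these passed. The r of TREM2 lay between -0.30 and 0.19 with SPI1, -0.42 and 0.17 with P2RY13 and -0.30 and 0.22 with C1Q, and turned sign without mimic library 6 or 9, that with SPI1 also without mimic library 2; the cause was not tested.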

Other observations

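After the mimic, the libraries ranked in exactly opposite order for P2RY13 and TREM2. Library 6 had the most P2RY13 and the least TREM2, followed by libraries 2, 4 and 10, and library 9 had the least P2RY13 and the most TREM2, so 0 of 10 pairs of libraries were in the same order. In naïve chicks 8 of 10 pairs were in the same order for these genes. This was noticed after the values were seen and was not tested. The r of TREM2 with P2RY13 given above is over both groups together. Over the 8584 other genes tested, 40 (0.466%) had the reverse order of P2RY13 among the mimic libraries.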
